A study of Mus musculus with 6 samples.

Results

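The enzymes that write and erase cytosine methylation, together with the catalytic subunits of Polycomb repressive complex 2, were followed through 6 mouse Eμ-Myc tumors. The 9 genes were Dnmt1, Dnmt3a, Dnmt3b, Uhrf1, Tet1, Tet2, Tet3, Ezh1 and Ezh2, chosen by name from 38293 genes in the deposited expression table. Each was found once. The genotypes compared by RNA-sequencing were miR-146a-/- (2 tumors) and miR-146a+/+ (4 tumors), all in C57BL6 mice. In each tumor a c-Myc transgene under the immunoglobulin heavy chain enhancer (Eμ) drove B-lineage tumors, and the miR-146a deletion was present in every cell of the deficient mice. Both miR-146a-/- tumors arose in the thymus, in mice aged 11 and 10 weeks. The miR-146a+/+ tumors came from the neck node (2 tumors, mouse ages 18 and 16 weeks) and from the thymus (2 tumors, mouse age 10 weeks for each). Tumors were dispersed to single cells and frozen without sorting. The labels give the miR-146a-/- mice as female and the miR-146a+/+ mice as male, so sex, as labelled, cannot be told apart from genotype.

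DNMT1 copies methylation onto the new DNA strand behind the replication fork, and UHRF1 recruits it there by recognizing hemimethylated CpG sites. DNMT3A and DNMT3B place methylation on unmethylated sites. The TET dioxygenases oxidize methylated cytosine to hydroxymethylcytosine and further products, which are lost by dilution or by base excision repair. EZH2 and its paralog EZH1 methylate histone H3 at lysine 27, a silencing mark separate from DNA methylation. In the B lineage, EZH2 is abundant in dividing cells and EZH1 prevails in resting cells, and TET2, DNMT3A and EZH2 are recurrently mutated in human hematologic cancers.

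The tumors expressed B-cell markers throughout. Cd79a, a signaling chain of the B-cell antigen receptor, measured between 388 and 550 RPKM (reads per kilobase of gene, scaled to the size of the library, the deposited unit). The neck node tumors also held other cells. Their summed RPKM over 8 neutrophil markers was 1636 and 1683, against 237 and 206 in miR-146a+/+ thymic tumors, and over 4 salivary gland markers 64.7 and 65.9, against 0.31 and 0.54. The miR-146a-/- tumors had 108 and 276 RPKM over the neutrophil markers. One miR-146a-/- tumor, the first, listed Xist at 1240070 RPKM, and its remaining genes summed to 692853 RPKM, within the range of 673931 to 787151 in the other tumors. The Y-linked gene Ddx3y was at 0.13 RPKM in that tumor and 24.6 RPKM in the other miR-146a-/- tumor, which goes against the female label of that animal, and between 17.9 and 23.0 RPKM in miR-146a+/+ tumors. The transcript of the miR-146a locus was listed at 0 in all 6 tumors, so the deletion itself could not be checked. Spacing between low values of single-exon genes gave about 59200000 and 41200000 reads in the miR-146a-/- tumors and 25600000 to 69700000 reads in the miR-146a+/+ tumors.

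The maintenance pair was far more abundant than the other members. Averaged over the 6 tumors, levels per kilobase ran from Uhrf1 (90.4 RPKM) through Dnmt1 (83.1), Ezh2 (26.4), Tet3 (9.43), Dnmt3b (5.63), Ezh1 (5.12), Dnmt3a (4.13) and Tet2 (2.95) to Tet1 (0.0429). The steps from Dnmt1 to Ezh2, Ezh2 to Tet3, Tet3 to Dnmt3b and Tet2 to Tet1 held in 6 of 6 tumors. Uhrf1 was above Dnmt1 and Dnmt3a above Tet2 in 5 of 6. Dnmt3b, Ezh1 and Dnmt3a could not be ordered, with each neighbour higher in 4 of 6 tumors. Within families, Dnmt1 made up 87.6% to 91.4% of summed Dnmt RPKM, Tet3 70.6% to 80.8% of summed Tet RPKM, and Ezh2 75.6% to 86.9% of summed Ezh RPKM. Each RPKM depends on the gene length the authors used, which is not given.

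**Figure D1:**
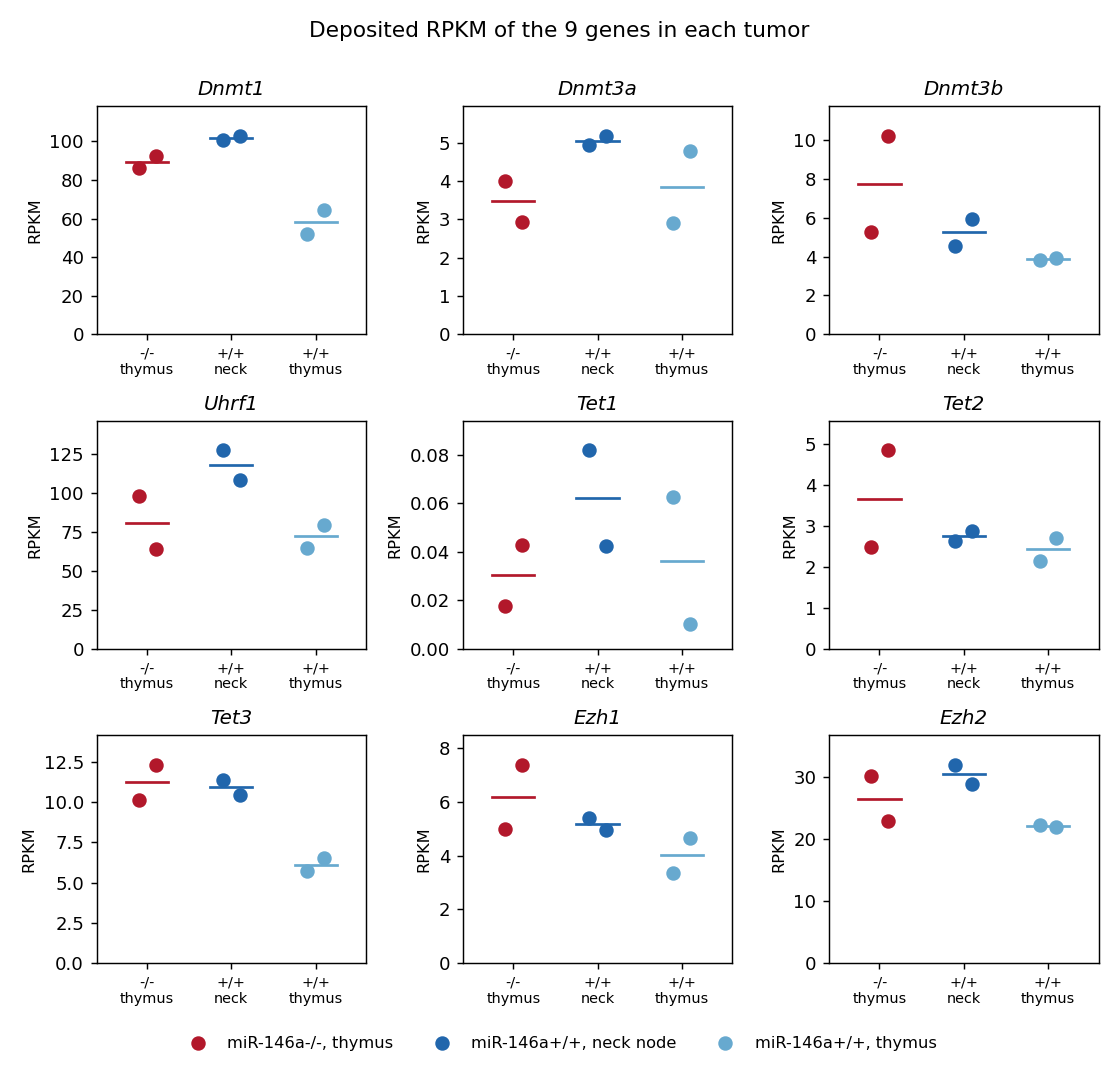
Deposited RPKM (vertical axis, linear, from 0) of the 9 genes in each tumor, with 2 tumors in each of the 3 columns and a line at their mean. All genes but Tet1 and Tet2 were lower in both miR-146a+/+ thymic tumors than in both neck node tumors. Tet1 stayed below 0.1 RPKM throughout.

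Dnmt1, on chromosome 9 (GRCm38, 20907209-20959888, minus strand), measured 86.4 and 92.6 RPKM in miR-146a-/- tumors, against 100.5 and 102.8 RPKM in miR-146a+/+ neck node tumors and 51.9 and 64.4 RPKM in miR-146a+/+ thymic tumors. The miR-146a-/- values thus fell between the sites of the miR-146a+/+ group, with no separation of the genotypes. The genotype difference was 0.22 ± 0.31 (SE) on the log2(RPKM + 1) scale used for all differences below, with a 95% interval from -0.48 to 0.92 (exact two-sided permutation p = 0.8, limma p adjusted over 12751 genes 0.904). It ranged from 0.035 without the third miR-146a+/+ tumor, a thymic one, to 0.36 without the second, from the neck node. In bulk tumors, fewer cells that express a gene and less of its RNA per cell cannot be told apart.

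Uhrf1, on chromosome 17 (56303321-56323486, plus strand), measured 98.1 and 64.1 RPKM in miR-146a-/- tumors, against 127 and 108 RPKM in neck node and 64.7 and 79.7 RPKM in thymic miR-146a+/+ tumors. The second miR-146a-/- tumor was the lowest of the 6 and the first was mid-range. The difference of -0.21 ± 0.31 (95% interval -0.93 to 0.51, exact permutation p = 0.533, limma adjusted p = 0.909) was within the spread, and it turned to 0.092 without the second miR-146a-/- tumor.

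Promoters of Dnmt1, Uhrf1 and Ezh2 are shown because they are the ones among the members with a match to an E2F motif. E2F factors switch on genes at the entry into S phase, and their core motif was searched as TTTGGCGC, TTTGCCGC, TTTCGCGC and TTTCCCGC on both strands of 14 RefSeq promoter windows covering all 9 genes. Each window runs from 250 bases before to 50 bases after an annotated start. A match was present at Dnmt1, Uhrf1 and Ezh2 only, against 2.26% of all 32851 windows of this length. Dnmt1 carried TTTGGCGC at position 33 and the reverse of TTTCGCGC at -219 from 1 of its annotated starts, Uhrf1 carried TTTCGCGC at -185, and Ezh2 carried TTTGGCGC at 3, with the start counted as 0. The windows are chr9:20952574-20952873 (minus strand), chr17:56304063-56304362 (plus strand) and chr6:47594981-47595280 (minus strand) on GRCm38.p6, printed 5′ to 3′ with the matches in capitals.
Dnmt1 promoter: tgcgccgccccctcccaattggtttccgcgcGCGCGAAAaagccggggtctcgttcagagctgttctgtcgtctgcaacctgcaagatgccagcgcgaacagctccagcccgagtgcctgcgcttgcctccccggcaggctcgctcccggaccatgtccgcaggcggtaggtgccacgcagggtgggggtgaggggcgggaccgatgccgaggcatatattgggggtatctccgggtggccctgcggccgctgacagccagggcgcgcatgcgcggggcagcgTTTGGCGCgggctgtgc
Uhrf1 promoter: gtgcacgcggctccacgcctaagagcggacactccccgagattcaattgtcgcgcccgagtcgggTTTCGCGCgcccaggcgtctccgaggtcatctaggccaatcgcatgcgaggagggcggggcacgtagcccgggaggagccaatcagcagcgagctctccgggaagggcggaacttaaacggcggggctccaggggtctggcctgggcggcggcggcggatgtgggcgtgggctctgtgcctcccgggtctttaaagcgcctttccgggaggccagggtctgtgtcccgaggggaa
Ezh2 promoter: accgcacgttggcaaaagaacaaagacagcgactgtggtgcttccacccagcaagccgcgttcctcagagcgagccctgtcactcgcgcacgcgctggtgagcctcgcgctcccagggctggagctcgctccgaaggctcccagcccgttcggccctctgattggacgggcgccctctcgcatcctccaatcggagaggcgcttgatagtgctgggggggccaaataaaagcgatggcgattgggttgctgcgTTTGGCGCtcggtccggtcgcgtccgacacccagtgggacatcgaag
The windows held 33, 33 and 31 CpG dinucleotides, against a median of 7 over all windows. Each searched E2F string itself contains a CpG. The other Dnmt1 windows held 12 and 2, and the other Uhrf1 window held 12. Windows of members without a match held 17 (Tet1) to 57 (Tet2), so a high count is not particular to the genes shown. The Myc E-box CACGTG was found at 1 of the 9 genes, Dnmt3a, and in 7.15% of all windows. CCAAT was found at 4 of the 9 and in 37.4% of all windows, and the GC box GGGCGG at 7 of the 9 and in 35.7%. A gene with several starts had several windows, a letter match is not evidence of binding, and the motifs were chosen with these sequences in view.

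Dnmt3b, on chromosome 2 (153649450-153687730, plus strand), had the largest genotype difference of the 8 tested members. It measured 5.28 and 10.2 RPKM in miR-146a-/- tumors, against 4.53 and 5.96 RPKM in neck node and 3.83 and 3.93 RPKM in thymic miR-146a+/+ tumors. The second miR-146a-/- tumor stood well above all others, whereas the first lay within the miR-146a+/+ range. The difference was 0.61 ± 0.30 (95% interval -0.08 to 1.30), with exact permutation p = 0.267 and limma adjusted p = 0.893. It was 0.19 without the second miR-146a-/- tumor and 1.03 without the first.

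Dnmt3a, on chromosome 12 (3806007-3914443, plus strand), ran the other way, at 4.01 and 2.94 RPKM in miR-146a-/- tumors, against 4.93 and 5.18 RPKM in neck node and 2.92 and 4.79 RPKM in thymic miR-146a+/+ tumors. One miR-146a+/+ thymic tumor was as low as the lower miR-146a-/- tumor. The difference was -0.27 ± 0.27 (95% interval -0.90 to 0.36, exact permutation p = 0.4, limma adjusted p = 0.893). It was -0.10 without the second miR-146a-/- tumor and -0.45 without the first. Dnmt3a shares 133 exon bases with an antisense gene, Dnmt3aos, and Tet2 and Ezh2 share 43 and 174 bases with unnamed antisense models. The library kit does not mark strand, so reads over these bases cannot be assigned.

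Tet3, the most abundant TET gene, lies on chromosome 6 (83362373-83459084, minus strand). It measured 10.2 and 12.3 RPKM in miR-146a-/- tumors, against 11.4 and 10.5 RPKM in neck node and 5.71 and 6.52 RPKM in thymic miR-146a+/+ tumors. The thymic miR-146a+/+ tumors were the only low ones. Its genotype difference was 0.41 ± 0.31 (95% interval -0.29 to 1.11, exact permutation p = 0.4, limma adjusted p = 0.893). Tet2, on chromosome 3 (133463679-133545139, minus strand), measured 2.49 and 4.85 RPKM in miR-146a-/- tumors, against 2.63 and 2.87 RPKM in neck node and 2.14 and 2.71 RPKM in thymic miR-146a+/+ tumors. Only the second miR-146a-/- tumor was outside the narrow range of the others. The difference of 0.34 ± 0.27 (95% interval -0.29 to 0.96, exact permutation p = 0.533, limma adjusted p = 0.893) was -0.035 without that tumor.

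Tet1, on chromosome 10 (62804570-62908996, minus strand), was barely detected and was left untested, since no tumor reached 0.5 RPKM. It was listed at 0.0176 and 0.0428 RPKM in miR-146a-/- tumors, against 0.0818 and 0.0424 RPKM in neck node and 0.0626 and 0.0100 RPKM in thymic miR-146a+/+ tumors. The effective length is not given, so it was chosen as the length that made all 6 values whole reads, 14924 bases, with a misfit of 0.0297% of a read, against 0.382% for the next best length of 14914 bases. The match is therefore no check of the length. At 14924 bases the values correspond to 16 and 27 reads in miR-146a-/- tumors, against 32, 45, 28 and 4 reads in miR-146a+/+ tumors. At 14914 bases they would be 17 and 29, against 28, 41, 29 and 4 reads. The exact Poisson 95% intervals, which cover counting error only, spanned 0.0101 to 0.0286 and 0.0282 to 0.0623 RPKM in miR-146a-/- tumors, against limits from 0.00274 to 0.115 RPKM over the miR-146a+/+ tumors. The genotypes overlapped (exact two-sided permutation p = 0.667), and 2 tumors of the same genotype, at 32 and 4 reads, had intervals that did not overlap. For the other members the lowest value stood for about 550 reads (Dnmt3b), a counting error of 4.27%, well below the spread between tumors.

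Ezh2, on chromosome 6 (47530139-47595341, minus strand), measured 30.1 and 22.9 RPKM in miR-146a-/- tumors, against 32.0 and 29.0 RPKM in neck node and 22.3 and 22.0 RPKM in thymic miR-146a+/+ tumors. The first miR-146a-/- tumor resembled the neck node tumors and the second the thymic ones. The difference was 0.01 ± 0.24 (95% interval -0.53 to 0.56, exact permutation p = 0.933, limma adjusted p = 0.995). Its sign was negative when tumors were rescaled, at -0.14 with median-ratio scaling and -0.10 with quantile normalization, and without the first miR-146a-/- tumor (-0.18) or either thymic miR-146a+/+ tumor (-0.06 each). Ezh1, on chromosome 11 (101191115-101226463, minus strand), measured 4.98 and 7.38 RPKM in miR-146a-/- tumors, against 5.41 and 4.94 RPKM in neck node and 3.37 and 4.65 RPKM in thymic miR-146a+/+ tumors. The second miR-146a-/- tumor was the highest. The difference was 0.35 ± 0.26 (95% interval -0.25 to 0.96, exact permutation p = 0.267, limma adjusted p = 0.893). It was 0.11 without that tumor and 0.60 without the first.

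Across genotypes, 0 of 8 tested members passed the adjusted threshold of 0.05 in limma, and 0 had an unadjusted p under 0.05. Over all genes, 0.0627% were called at the adjusted threshold and 3.62% at the unadjusted one. The members' median difference was 0.28 with 6 of 8 positive, beside a median of 0.13 with 67.6% positive over all genes. Median-ratio scaling brought the median of all genes to -0.00081, and with it Dnmt3b differed by 0.47 and Dnmt3a by -0.39, and Ezh2 was the only member to change sign. The groups overlapped for all 9 members, where 9.15% of all genes were non-overlapping and higher in miR-146a-/- and 2.09% non-overlapping and lower. Exact two-sided permutation p-values over the 15 splits of 6 tumors ranged from 0.267 to 0.933, and the smallest such a design allows is 0.133. The labels describe individual tumors without stating that each came from its own animal, so p-values measure the spread between these tumors.

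By tumor site, all 8 tested members were higher in neck node than in thymic miR-146a+/+ tumors, although none passed the adjusted threshold. Among miR-146a+/+ tumors, neck node values exceeded thymic values without overlap for 7 of 8 tested members, all but Tet2, beside 27.9% of all genes higher and 12.6% lower without overlap. The largest differences, neck node minus thymus, were 0.80 ± 0.24 for Dnmt1 (limma adjusted p = 0.584), 0.75 ± 0.25 for Tet3 (adjusted p = 0.601) and 0.70 ± 0.25 for Uhrf1 (adjusted p = 0.601). These 3 of 8 had an unadjusted p under 0.05, beside 7.87% of all genes, and 0 passed the adjusted threshold, beside 0.155%. Ezh2 differed by 0.44, Dnmt3a and Dnmt3b by 0.35 each, Ezh1 by 0.31 and Tet2 by 0.13. The members' median was 0.39, beside 0.10 over all genes. The neck node mice were also older, so site and age cannot be told apart, and the part of the neutrophil and salivary gland RNA described above in these differences was not tested.

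**Figure D2:**
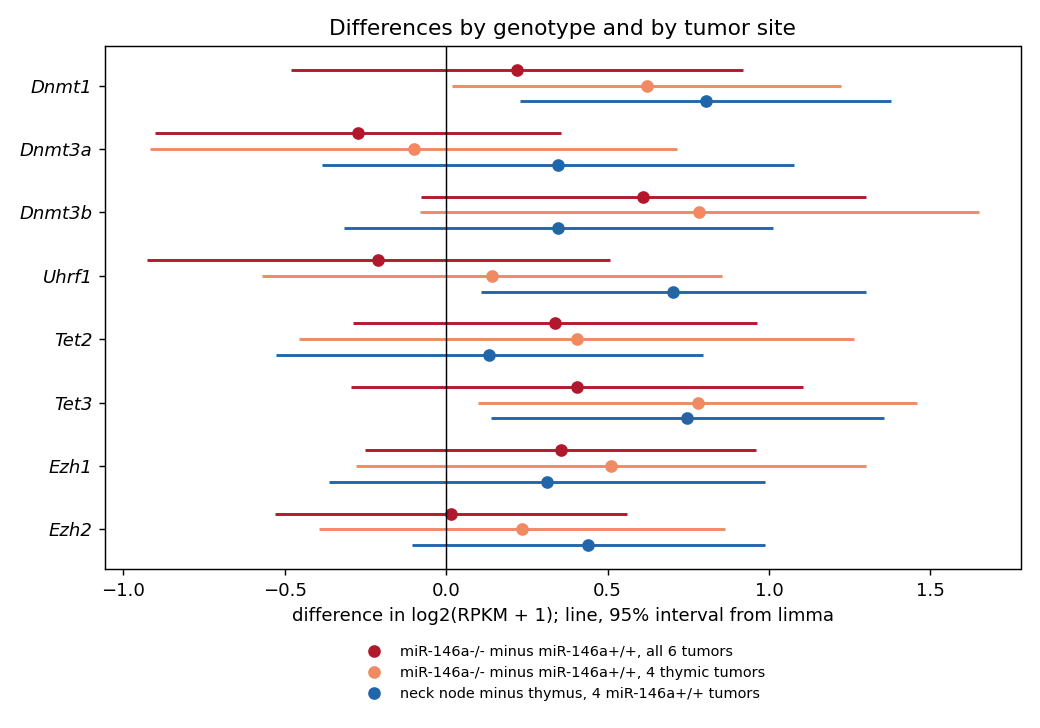
Differences in log2(RPKM + 1) of the 8 tested members (points) with 95% intervals from limma (lines), for genotype over all 6 tumors, genotype among the 4 thymic tumors, and neck node minus thymus among miR-146a+/+ tumors. The genotype intervals over all tumors span 0 for every gene. Before adjustment, the genotype intervals of Dnmt1 and Tet3 among thymic tumors lie above 0, as do the site intervals of Dnmt1, Tet3 and Uhrf1.

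Since both miR-146a-/- tumors were thymic, the genotypes were also set against each other within that site. Among the 4 thymic tumors, Dnmt1, Dnmt3b, Tet3, Ezh1 and Ezh2 were higher in both miR-146a-/- tumors than in both miR-146a+/+ tumors. That is 5 of 8, beside 32.5% of all genes higher and 10.5% lower without overlap. Tet3 differed by 0.78 ± 0.29 (SE) and Dnmt1 by 0.62 ± 0.25, the 2 members with an unadjusted p under 0.05, which 7.28% of all genes had. Dnmt3b differed by 0.78 ± 0.37, Ezh1 by 0.51, Tet2 by 0.40, Ezh2 by 0.23, Uhrf1 by 0.14 and Dnmt3a by -0.10. No member passed the adjusted threshold (adjusted p = 0.662 for Dnmt1, Dnmt3b and Tet3), and 0.0244% of all genes did. The members' median was 0.46, beside 0.19 over all genes. Uhrf1 was thus lower in miR-146a-/- over all tumors and higher among thymic ones, both within the spread. Within this site, B-cell precursor markers summed to 8.79 and 3.16 RPKM in miR-146a-/- tumors, against 45.7 and 106 RPKM in miR-146a+/+ tumors, with 0 of 6 tested markers higher. Macrophage markers summed to 277 and 375 RPKM, against 151 and 270 RPKM, with 9 of 9 higher. T and NK cell markers summed to 15.4 and 18.3 RPKM, against 43.5 and 22.4 RPKM, with 1 of 9 higher. Their part in the members' differences was not tested.

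S-phase genes followed tumor site in the same direction as Dnmt1 and Uhrf1. Of 18 genes of DNA replication and the cell cycle, 17 were higher in neck node than in thymic miR-146a+/+ tumors and 14 did not overlap, beside 61.0% of all genes positive and 27.9% higher without overlap. The median difference was 0.53, and 7 of 18 had an unadjusted p under 0.05, beside 7.87% of all genes, though 0 were called. Gins2, a subunit of the replicative helicase, was the exception, lower without overlap at 26.4 and 20.1 RPKM in neck node tumors, against 34.3 and 34.7 RPKM in thymic ones. Cdc6, which loads the replicative helicase and was chosen after its values were seen, was at 23.2 and 23.4 RPKM in neck node tumors, against 9.74 and 10.2 RPKM in thymic ones. By genotype over all tumors the same list had a median of 0.03 with 9 of 18 positive, beside 0.13 and 67.6% over all genes. Among thymic tumors its genotype median was 0.37 with 12 of 18 positive, beside 0.19 and 68.9% over all genes. There 10 were higher and 2 lower without overlap in miR-146a-/-, beside 32.5% and 10.5% of all genes. The mean log2(RPKM + 1) of the list was 6.17 and 5.82 in miR-146a-/- tumors, against 6.36 and 6.17 in neck node and 5.83 and 5.70 in thymic miR-146a+/+ tumors. The 3 tumors with the highest means were also the 3 highest for Uhrf1 and Ezh2. Dnmt3b, Tet2, Tet3 and Ezh1 had their highest value in the second miR-146a-/- tumor, where the list mean was below that of the first. Dnmt1 was also higher in the second of these tumors than in the first (92.6 against 86.4 RPKM). By site, Dnmt3b, Tet3 and Ezh1 were higher without overlap in neck node than in thymic miR-146a+/+ tumors, as most of the list was. That tumor also had the highest Mki67, a marker of dividing cells (313 RPKM, against 185 RPKM in the first), and low Ccne2, cyclin E2 (13.8 RPKM). Whether cycling accounts for any member's difference was not tested.

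**Figure D3:**
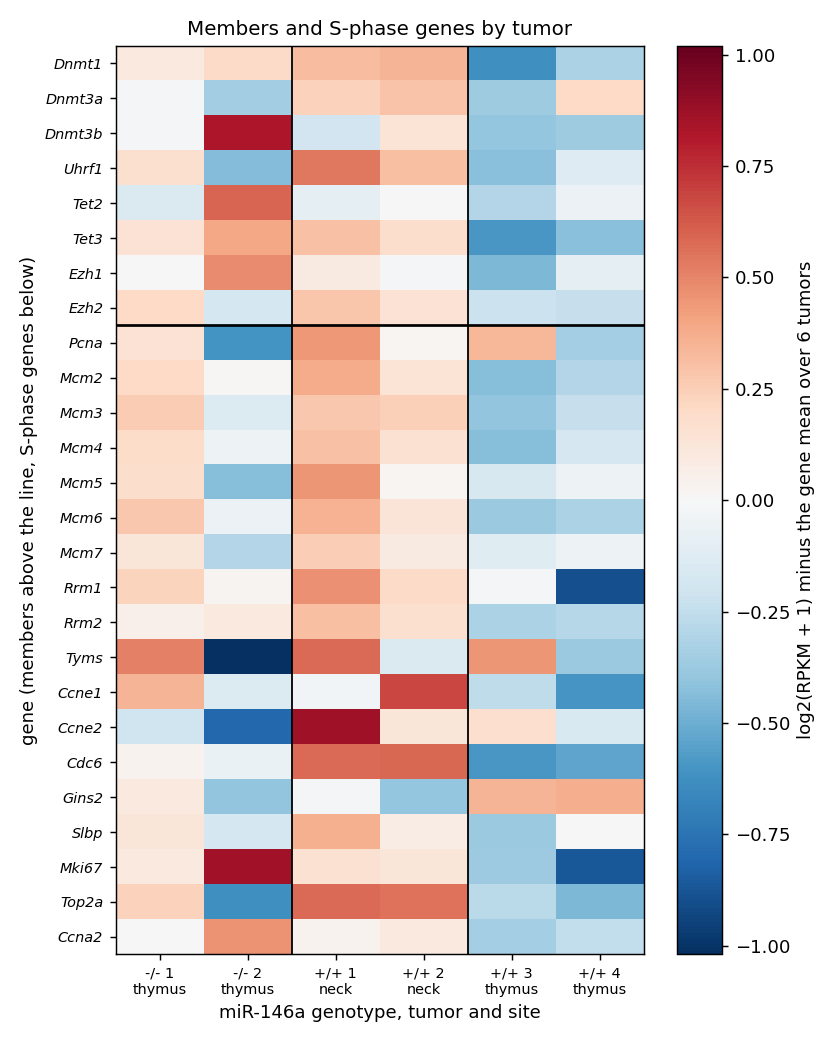
Log2(RPKM + 1) of the 8 tested members (above the line) and 18 S-phase genes (below) in each tumor, as the difference from the gene's mean over 6 tumors (colour scale, red higher). Most S-phase genes, Dnmt1, Uhrf1, Ezh2 and Tet3 are red in the neck node tumors. Dnmt3b, Tet2, Tet3 and Ezh1 are highest in the second miR-146a-/- tumor.

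Ratios within a tumor do not depend on how it was scaled. Dnmt3a over Dnmt3b, the balance of the de novo enzymes, was 0.759 and 0.287 in miR-146a-/- tumors, against 1.09, 0.868, 0.761 and 1.22 in miR-146a+/+ tumors. It was the only one of 5 ratios without overlap, although 0.759 and 0.761 nearly touched. The log2 difference was -1.05 (exact two-sided permutation p = 0.133, the smallest possible, adjusted over 5 ratios p = 0.444), and -0.35 without the second miR-146a-/- tumor. Ezh2 over Ezh1 was 6.06 and 3.10 in miR-146a-/- tumors, against 4.74 to 6.64 in miR-146a+/+ tumors (log2 difference -0.41, exact permutation p = 0.533, adjusted p = 0.667), and turned to 0.076 without the second miR-146a-/- tumor. Uhrf1 over Dnmt1 was 1.14 and 0.692, against 1.05 to 1.27 (-0.43, exact permutation p = 0.267, adjusted p = 0.444). The same tumor, the second miR-146a-/- one, was thus lowest in all 3 ratios. Summed Dnmt over summed Tet was 7.55 and 6.15, against 7.42 to 8.53 (-0.21, exact permutation p = 0.267, adjusted p = 0.444). Tet2 over Tet3 was 0.245 and 0.394, against 0.231 to 0.415 (-0.02, exact permutation p = 1), with the sign turning without the first miR-146a-/- tumor (0.32) or either thymic miR-146a+/+ tumor (0.06 and 0.11).

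**Figure D4:**
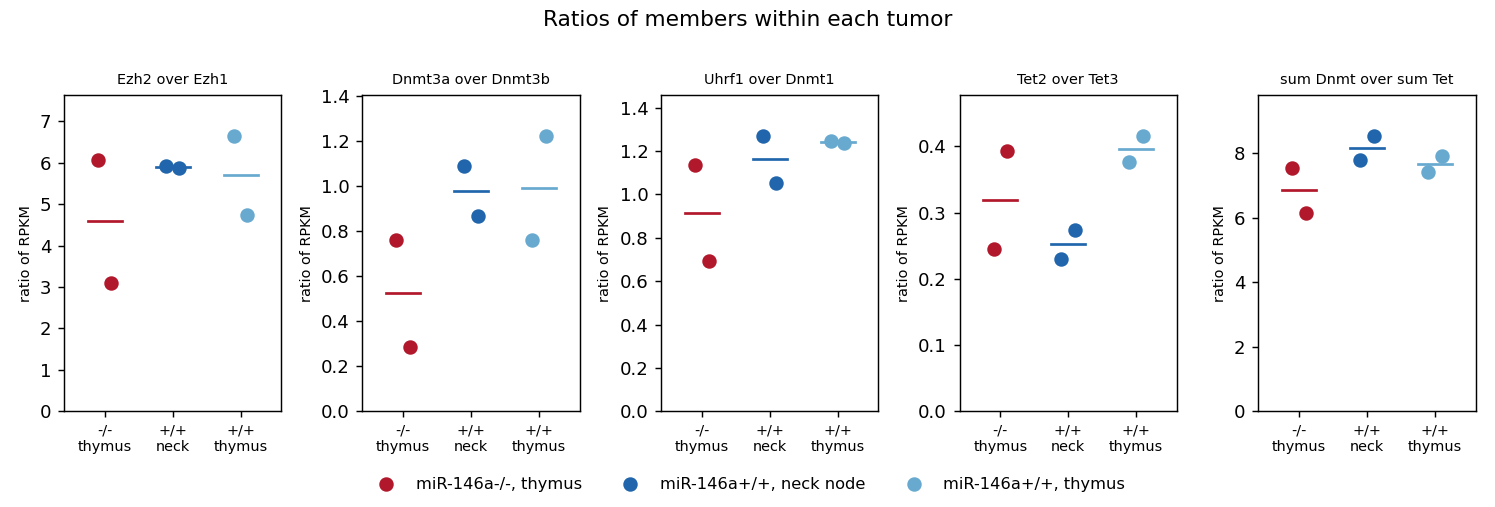
Ratio of RPKM of members within each tumor (vertical axes, from 0), with 2 tumors and their mean in each column. The second miR-146a-/- tumor has the lowest Ezh2 over Ezh1 (3.10), Dnmt3a over Dnmt3b (0.287) and Uhrf1 over Dnmt1 (0.692) of the 6.

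In the pathway around the members, 0 genes were called by genotype in any list, beside 0.0627% of all genes. Unadjusted limma p was under 0.05 for Mbd2 and Ccne2 only, beside 3.62% of all genes. Genes without overlap between genotypes are named below, beside 9.15% of all genes higher and 2.09% lower without overlap. The list medians and positive counts that follow stand beside a median of 0.13 and 67.6% positive over all genes. All 10 tested of 12 methylation cofactors were positive (median 0.18). The most abundant, Cdca7, which with HELLS opens nucleosomal DNA to methylation, was at 133 and 123 RPKM in miR-146a-/- tumors, against 143, 142, 105 and 101 RPKM in miR-146a+/+ tumors. Of 10 genes from the MBD and ZBTB families, which include readers of methylated CpG (median 0.22, 7 positive), Mbd3 was the most abundant. This nucleosome remodeling subunit differed by -0.02. Mbd2, a repressor that binds methylated CpG, stood out in size. It measured 33.6 and 40.1 RPKM in miR-146a-/- tumors, against 26.2 and 29.3 RPKM in neck node and 22.4 and 19.1 RPKM in thymic miR-146a+/+ tumors. Both miR-146a-/- tumors were above all others, by 0.59 ± 0.23 (exact permutation p = 0.133, limma adjusted p = 0.893). Zbtb33, the zinc-finger reader Kaiso, was lower without overlap (-0.21, adjusted p = 0.893).

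Of 12 genes of active demethylation and repair, 10 were tested, 7 were positive and the median was 0.07. Parp1, a sensor of strand breaks, was the most abundant, at 150 and 144 RPKM in miR-146a-/- tumors, against 102 to 177 RPKM in miR-146a+/+ tumors. Genes that supply or modify the TET enzymes had a median of 0.12 with 7 of 9 positive, and Idh3a, a mitochondrial dehydrogenase subunit that makes the TET cosubstrate, differed by 0.15. Among 10 PRC2 partners (median 0.28, 9 positive), Suz12, a core subunit, measured 57.9 and 63.0 RPKM in miR-146a-/- tumors, against 52.9, 55.5, 48.0 and 46.7 RPKM in miR-146a+/+ tumors. The groups did not overlap, with a difference of 0.25 ± 0.19 (limma adjusted p = 0.893). Rbbp7, a histone-binding subunit and the most abundant partner, differed by 0.14. The H3K27 demethylases Kdm6a and Kdm6b were both positive (median 0.20), Kdm6a by 0.17. Of 19 PRC1 subunits (median 0.12, 13 positive), Ring1, an E3 ligase for histone H2A, was higher without overlap at 6.70 and 6.51 RPKM, against 4.12 to 6.48 RPKM (0.28, limma adjusted p = 0.893). Pcgf6, the most abundant, differed by 0.50 (limma adjusted p = 0.893). It measured 20.4 and 35.5 RPKM in miR-146a-/- tumors, against 20.5, 21.0, 13.9 and 20.9 RPKM in miR-146a+/+ tumors. Only the second miR-146a-/- tumor was thus above the miR-146a+/+ range. In the S-phase list, Pcna, the sliding clamp, differed by -0.34, and Ccne2 was lower without overlap, at 21.4 and 13.8 RPKM, against 22.2 to 45.9 RPKM (-0.75 ± 0.31, exact permutation p = 0.133, limma adjusted p = 0.893).

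By site, the lists other than the S-phase genes were mostly higher in neck node than in thymic miR-146a+/+ tumors, again with 0 called. The medians ran from 0.27 for PRC1 subunits to 0.42 for methylation cofactors, beside 0.10 over all genes. Higher without overlap were 7 of 10 PRC2 partners, 6 of 10 cofactors and 6 of 10 MBD and ZBTB genes, beside 27.9% of all genes. So were 5 of 9 demethylation and repair genes, 4 of 9 genes that supply or modify TET, 2 of 2 H3K27 demethylases and 6 of 19 PRC1 subunits.

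Matches to the miR-146a seed were looked up in the members because the deletion removes this microRNA. The mature strand, on chromosome 11 (43374435-43374456, minus strand, GRCm38.p6, RefSeq), is printed with its seed, bases 2 to 8, in capitals.
mmu-miR-146a-5p: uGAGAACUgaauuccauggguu
The longest annotated 3′UTR of each gene was searched for the complement of the seed, AGTTCTC, and for the form GTTCTCA. A match of either form was found in 3 of the 9 members, Uhrf1, Tet1 and Tet3, always as AGTTCTC. Either form was found in 21.5% of 10732 tested genes with a 3′UTR. The 5 matches are printed below with 10 bases before and 5 after, the match in capitals. Each base number is that of the second base of the match, its G. None is followed by the A that makes the longer form of a site.
Uhrf1 3′UTR site from base 312: tgctggtaggAGTTCTCcccac
Tet1 3′UTR site from base 579: tatataaagtAGTTCTCtattc
Tet1 3′UTR site from base 2935: tcctgtttccAGTTCTCtacaa
Tet1 3′UTR site from base 3572: tcaatccctgAGTTCTCgggac
Tet3 3′UTR site from base 1258: caagggggccAGTTCTCcattg
The 3′UTRs of these genes are 984 (Uhrf1), 7962 (Tet1) and 5669 (Tet3) bases long, and longer sequences have more matches. Beside the values above, Uhrf1 differed by genotype by -0.21 and Tet3 by 0.41, neither past the threshold, and Tet1 was too low to test. The matches are letters only.

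The genes whose log2(RPKM + 1) followed each member most closely over the 6 tumors were ranked by Pearson r, as a description over 6 points that share libraries. The search ran over 12751 genes. For Dnmt1 they were Patz1 (r = 0.998), 1700092M07Rik (0.995) and Slc16a13 (0.993), and for Uhrf1 Snx15 (0.983), Rassf2 (0.981) and D17H6S53E (0.976). For Dnmt3a they were Gm14001 (0.994), Wdr44 (0.992) and Ptcd3 (0.988), and for Dnmt3b Slc19a2 (0.997), Rnf149 (0.995) and Tcf20 (0.994). Tet2 had Rbm25 (0.997), 1810043G02Rik and Ppig (0.996 each), and Tet3 had Gm7701 (0.998), Cxxc1 and Med19 (0.995 each). Ezh1 had Gm11400 (0.998), 6330408A02Rik (0.997) and 4922501C03Rik (0.996), and Ezh2 had Gm9755 (0.997), Zranb3 and AC165253.1 (0.995 each). Tet1, at its few reads, had Cenpb (0.966), Dok1 (0.958) and Bet1l (0.948). No gene was shared between these lists.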

How the data were processed

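Total RNA of tumor cells was sequenced single-end at 100 bases with 2 technical runs per tumor. Per the study's methods and the submitters' processing notes, the authors aligned reads to GRCm38 with STAR 2.3.0, using Ensembl annotation, counted genes with HTSeq 0.5.4p3, and tested with DESeq (1.12.1 in the notes). The deposited values are RPKM, 1 per gene and tumor; the gene lengths and the joining of the technical runs are not given in the sources used here. All 6 columns were mapped to samples, with 0 unmapped.

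Here, limma 3.58.1 (R 4.3.3) with trend was run on log2(RPKM + 1) over genes with at least 0.5 RPKM in at least 2 tumors, with Benjamini-Hochberg adjustment over all genes and a threshold of 0.05. Single genes and ratios were compared by exact two-sided permutation. Such log2 differences understate changes of low genes. The code was tested on simulated data. No count model was run, since RPKM are not counts. Depth was estimated from single-exon genes: RPKM times length less 99 bases fell on whole steps of 2 runs for 56.3% to 64.1% of low values, within 0.00015 RPKM times kilobases, assuming that runs were averaged and scaled by all reads counted. The steps were taken as the 2 most common of these low values, so the share is no check of the depths.

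The members, gene lists and motifs were chosen with earlier results of these data known. The genes named are the members, in each list the most abundant gene and up to 3 with the largest difference among those whose genotypes do not overlap, and the 3 genes nearest each member. One gene named by this rule is not reported here, and Cd79a, Cdc6, Gins2, Mki67, Xist and Ddx3y were named outside it, after their values were seen. Positions and 3′UTRs come from GENCODE M21, promoters and the microRNA from RefSeq. Replicate numbers shared between genotypes come from sample titles and mark different tumors. Alternatives covered the filter, pseudocounts of 0.1 and 5, scaling, the trend and prior, site, a replicate block and leaving out each tumor.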

Additional observations from a re-analysis of the deposited data

Results flagged for a closer look

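Among 28 sets of 4 miR-146a+/+ values examined with Dixon's test, 3 had 1 tumor apart from the rest, where chance flags about 1 in 20. One thymic miR-146a+/+ tumor, the third, had Dnmt3a at 2.92 RPKM, against 4.79 to 5.18 RPKM in the other 3. The same tumor had Pcgf6 at 13.9 RPKM, against 20.5 to 21.0 RPKM. One neck node tumor, the second, had a Uhrf1 over Dnmt1 ratio of 1.05, against 1.24 to 1.27.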

How the results depend on the processing

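No member passed the adjusted threshold in any alternative for either comparison. The genotype difference of Ezh2 turned negative with median-ratio scaling (-0.14), with quantile normalization (-0.10) and without single tumors (-0.18 to 0.21 over the 6 omissions). Uhrf1 turned to 0.14 with tumor site as a covariate or with thymic tumors only, and ranged from -0.51 to 0.092 when single tumors were left out. Tet2 ranged from -0.035 to 0.71, Dnmt1 from 0.035 to 0.36, Dnmt3a from -0.45 to -0.10, Dnmt3b from 0.19 to 1.03, Tet3 from 0.25 to 0.55 and Ezh1 from 0.11 to 0.60. Among the ratios, Tet2 over Tet3 ranged from -0.36 to 0.32 and Ezh2 over Ezh1 from -0.89 to 0.076 when single tumors were left out. Genes called by genotype numbered 8, against 3 with the site covariate, 3 among thymic tumors only and 4 to 9 without single tumors. Genes called by site numbered 19, against 0 without the filter and 11 to 67 without single tumors. Same-numbered tumors of the genotypes correlated by 0.019 and 0.213 in their deviations and share only a number, and with the replicate block 1 gene was called, Dnmt1 was -0.18, Ezh2 -0.21, Uhrf1 -0.56 and Tet3 0.033, against 0.41 without it for Tet3. Count-based tools (edgeR, DESeq2) were not run.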
